A study of Mus musculus with 6 samples.

Results

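The 46 genes described here encode enzymes of the pentose phosphate pathway and of purine, pyrimidine, folate and deoxynucleotide synthesis and salvage. They were chosen by gene symbol, and all 46 were found among the 25124 genes of the deposited table. Their RNA was sequenced from 6 samples of RAW264.7, a mouse macrophage line derived from a leukaemia virus-induced tumour, and 3 samples were labelled M0 and 3 M1. Every sample came from a control line that had been given a plasmid for the Cas9 nuclease with no guide sequence, made as the comparison for an E4BP4 knockout line. The sources used here do not say whether it is a single clone. For M1, the bacterial component lipopolysaccharide (LPS) was added at 100 ng/ml together with interferon-γ (IFN-γ) at 50 ng/ml, and M0 cells got neither. Both were kept in medium with 25 mM glucose, and how long the treatment lasted is not stated. Since no label describes the replicates as separate cultures, p-values reflect only how far the samples of a group spread, and that spread may be technical.

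The pentose phosphate pathway takes glucose phosphate from glycolysis. Its oxidative branch yields NADPH and its non-oxidative branch interconverts sugar phosphates, so that ribose phosphate can be made or returned to glycolysis. Ribose phosphate is activated to PRPP, on which purines are built and to which the pyrimidine ring is attached, with carbon units for purines and for thymidylate carried by folate. Ribonucleotide reductase and thymidylate synthesis supply the DNA precursors, whereas salvage enzymes recycle bases and nucleosides. In macrophages NADPH also serves the oxidative burst, nitric oxide synthesis and lipid synthesis, and proliferating cells draw on the nucleotide branches for DNA replication.

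The libraries held 15615639 to 20283180 reads in genes, and 1 TPM (transcript abundance, a level scaled by transcript length and library) of a transcript of 2000 bases stood for at least 26.5 reads. Macrophage markers were present in all samples (their summed level was 2221 to 2447 TPM in M0 and 1947 to 1981 TPM in M1). They did not move together. On TPM, Adgre1, Fcgr1 and Spi1 were higher in M1, and Csf1r, Cd68, Itgam and Lyz2 were lower. Lyz2, the most abundant, was at 1017 to 1159 TPM in M0 and 654 to 699 TPM in M1. Adgre1 was at only 2.15 to 3.08 TPM in M0 and at 66.3 to 68.3 TPM in M1. The M1 markers Nos2, Tnf and Il1b went from 0.161 ± 0.0417 to 563 ± 51.7, from 23.7 ± 1.0 to 821 ± 5.95 and from 0.239 ± 0.0464 to 387 ± 20.1 TPM (mean ± SD, n = 3 here and below). No T cell marker passed 0.096 TPM in any library (5 genes, 2 of them listed at 0 throughout), no B cell marker 0.303 TPM (5 genes, 1 at 0) and no fibroblast or epithelial marker 1.06 TPM (6 genes, 2 at 0). That last value was Dcn in M1. On the TPM scale the 11297 tested genes had a median log2 change of -0.31, and 0.02 after rescaling each library by its median-of-ratios factor, which sets the typical gene to no change. Changes are therefore given on both scales. "Rose" and "fell" refer to TPM as deposited, with p-values adjusted over all 11297 genes (limma, Benjamini-Hochberg, called under 0.05), and log2 changes are of log2(TPM + 1), which understates the change of low genes.

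All 46 genes passed the filter for testing. Of them 5 rose (10.9%) and 38 fell (82.6%), against 18.7% of all tested genes that rose and 61.5% that fell. Together 43 of the 46 changed on TPM and 28 after rescaling, where 80.2% and 73.5% of all tested genes did. The 46 had a median log2 change of -0.38 on TPM, which became -0.03 with rescaling. After rescaling, 11 were higher (23.9%) and 17 lower (37.0%), against 38.1% and 35.4% of all tested genes, so the share of lower calls among the 46 was near that of all genes on this scale. The 5 genes that rose were Pnp, Upp1, Dck, Mthfd2 and Rpe, and all 5 were called higher on both scales. The 17 genes lower on both scales were Rpia, Prps2, Ppat, Gart, Pfas, Paics, Impdh1, Cad, Dhodh, Umps, Mthfd1, Rrm1, Rrm2, Dtymk, Tk1, Dctd and Ada. Another 18 that fell on TPM were not called after rescaling, and Shmt2, Hprt and Cmpk1 fell on TPM but were higher after rescaling. G6pdx, Pgd and Nme2 were not called on TPM and were higher after rescaling. At least 2-fold on the fitted scale, 2 of the 46 rose (Pnp and Upp1) and 3 fell (Prps2, Rrm2 and Tk1), against 6.48% and 11.3% of all tested genes. After rescaling 3 were higher (with Dck) and 2 lower (without Prps2) by that size, against 8.93% and 5.77%. The authors' deposited table has 11 of the 46 higher and 16 lower (adjusted p under 0.05), and all 27 calls had the same direction as after rescaling.

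**Figure D1:**
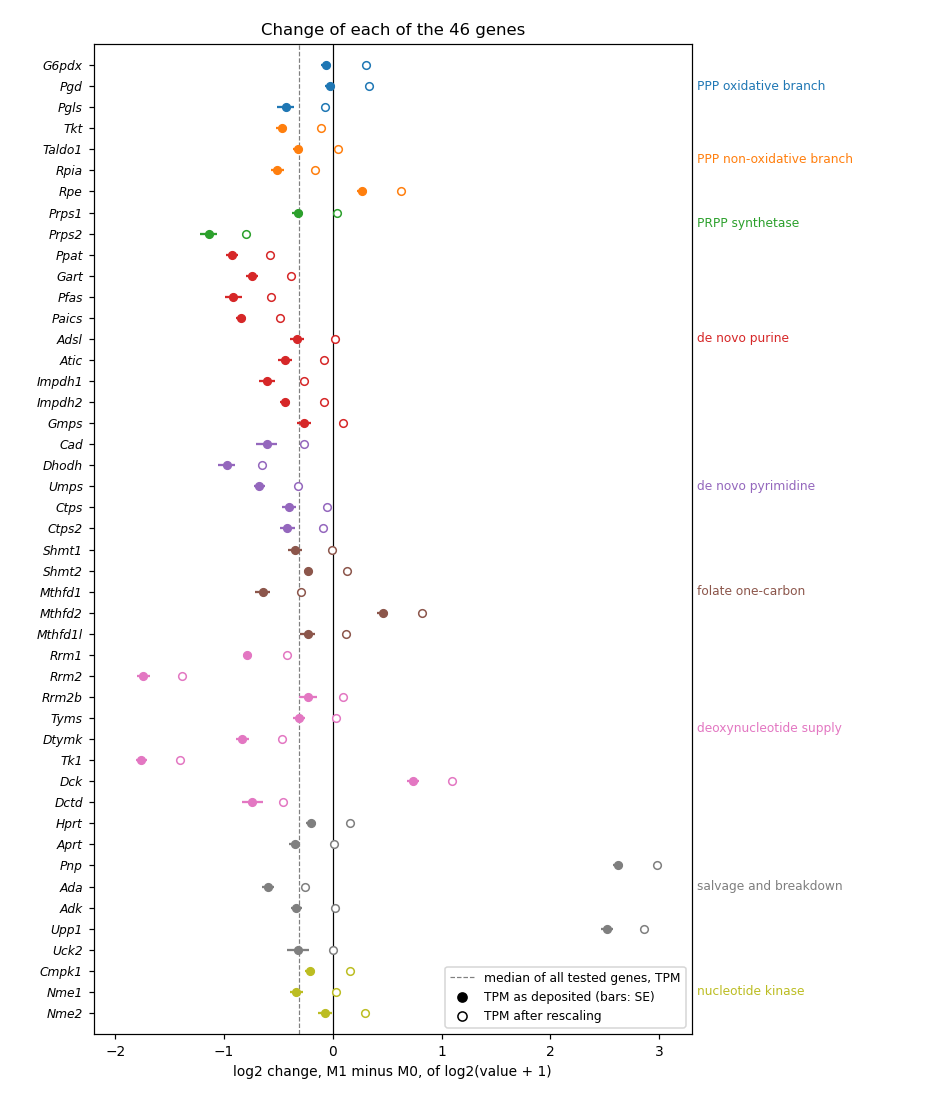
Log2 change of M1 minus M0 (horizontal axis, log2(value + 1)) of each of the 46 genes, grouped by role. Filled circles are TPM as deposited with SE, open circles TPM after rescaling, and the dashed line is the median of all tested genes at -0.31. Both circles of Pnp and Upp1 lie to the right of 2.5. The filled circles of Rrm2 and Tk1 lie to the left of -1.7 and their open circles at -1.38 and -1.40. Many other open circles lie near 0.

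The groups did not overlap for 43 of the 46 genes (93.5%, against 81.4% of all tested genes). Every M1 value lay above every M0 value for 5 genes and below for 38, against 19.6% and 61.8% of all tested genes. The SD within a group was 4.85% of the mean in the median, and at most 16.1% (Uck2 in M1). The lowest read number of any of the 46 in a library was 63 (Dctd), and 29 genes had at least 1000 reads in every library. Replicates of a group differed with transcript length. M1 replicate 3 was the highest of its group for 28 genes (median length 2866 bases) and the lowest for 12 (median 1291.5 bases). M0 replicate 1 was the highest for 10 (median 1809 bases) and the lowest for 23 (median 3294 bases). The part of this in the comparisons was not tested, but leaving out either library changed the call of none of the 46 genes except Rrm2b, which was no longer called without M1 replicate 3.

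Pnp and Upp1 changed most upward and Tk1 and Rrm2 most downward, and the DNA before their start sites is shown so that the members moving together can be compared. In mm10 Upp1 lies at chr11:9118008-9136170, Pnp at chr14:50944303-50953412, Rrm2 at chr12:24708254-24714146 and Tk1 at chr11:117815519-117826014. The windows are from RefSeq (GRCm38.p6, the assembly also named mm10) and run from 250 to 21 bases before the annotated start, or to 81 bases for Tk1, whose annotated exons reach further up. Matches to any of 8 motifs, listed with the promoter counts further on, are in capitals.
Upp1 (chr11:9117758-9117987, plus strand): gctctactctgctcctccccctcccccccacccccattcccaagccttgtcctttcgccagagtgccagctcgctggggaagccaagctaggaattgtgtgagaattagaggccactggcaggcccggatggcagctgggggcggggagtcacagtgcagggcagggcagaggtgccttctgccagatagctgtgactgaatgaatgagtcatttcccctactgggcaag
Pnp (chr14:50944053-50944282, plus strand): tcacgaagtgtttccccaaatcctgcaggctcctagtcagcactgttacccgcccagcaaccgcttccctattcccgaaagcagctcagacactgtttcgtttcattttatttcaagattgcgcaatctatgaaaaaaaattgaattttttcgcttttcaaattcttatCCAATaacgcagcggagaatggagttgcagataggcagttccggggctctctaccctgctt
Rrm2 (chr12:24708004-24708233, plus strand): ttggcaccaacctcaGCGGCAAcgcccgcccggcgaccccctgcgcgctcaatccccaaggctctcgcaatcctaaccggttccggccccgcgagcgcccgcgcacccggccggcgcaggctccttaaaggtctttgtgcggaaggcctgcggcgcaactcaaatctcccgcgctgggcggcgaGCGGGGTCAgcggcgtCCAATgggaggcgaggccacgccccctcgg
Tk1 (chr11:117826095-117826264, minus strand): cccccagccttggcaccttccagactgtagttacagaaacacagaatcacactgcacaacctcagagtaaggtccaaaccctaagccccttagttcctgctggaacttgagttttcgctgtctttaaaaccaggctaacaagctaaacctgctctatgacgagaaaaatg
The capitals mark a CCAAT box in Pnp and, in Rrm2 from left to right, an E2F site, an antioxidant response element and a CCAAT box. The stretches of Upp1 and Tk1 hold none of the 8 motifs.

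In the oxidative branch, both dehydrogenases were without a call on TPM and higher after rescaling, and the lactonase fell on TPM. G6pdx, the glucose-6-phosphate dehydrogenase that opens the pathway, averaged 168 ± 2.54 TPM in M0, against 160.5 ± 6.15 TPM in M1, without a call (log2 change -0.06, SE 0.04, limma adjusted p = 0.21), whereas it was higher after rescaling (0.30, adjusted p = 1.1e-04). Pgd, the 6-phosphogluconate dehydrogenase that releases ribulose phosphate and NADPH, was the most abundant of the branch. It stood at 215, 225 and 226 TPM in M0 replicates 1 to 3 and at 209, 214 and 230.1 TPM in M1. The groups overlapped on TPM (-0.03, adjusted p = 0.61), and after rescaling Pgd was higher (0.34, adjusted p = 6.5e-05). Pgls, the lactonase between these enzymes, fell from 134 ± 15.1 to 98.6 ± 6.59 TPM, a change of -0.43 that became -0.07 after rescaling and was not called there.

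In the non-oxidative branch the epimerase Rpe rose and the isomerase Rpia fell, on both scales. Both act on ribulose phosphate, Rpia towards ribose phosphate and Rpe towards xylulose phosphate. Rpe measured 53.3, 54.9 and 51.5 TPM in M0 samples and 66.1, 63.2 and 63.3 TPM in M1 samples, every M1 sample above every M0 sample (0.27, SE 0.05, limma adjusted p = 2.6e-04, and 0.62 after rescaling). Rpe shares 558 bases with Kansl1l on the opposite strand, which stood at 4.86 and 5.19 TPM on average, and whether counting used strand is not stated. Rpia fell from 30.1 ± 2.32 to 20.8 ± 0.435 TPM (-0.51, and -0.16 after rescaling, adjusted p = 0.035). In the authors' deposited table its change of -0.17 was not called (adjusted p = 0.086). Taldo1, the transaldolase, was the most abundant of all 46, at 515, 505 and 519 TPM in M0 samples and 413, 407 and 411 TPM in M1 samples. It fell 1.25-fold with no overlap, but its log2 change of -0.32 became 0.04 after rescaling and was not called. Tkt, the transketolase, fell from 211 ± 7.1 to 152 ± 8.5 TPM (-0.47, and -0.11 after rescaling, not called, adjusted p = 0.063).

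The PRPP synthetases differed in size of change. Prps2 measured 27.5, 29.7 and 27.8 TPM in M0 samples and 11.8, 11.4 and 13.9 TPM in M1 samples, a 2.3-fold fall without overlap (-1.14, SE 0.07, limma adjusted p = 6.1e-08, and -0.80 after rescaling). Prps1, the more abundant, measured 59.6, 62.1 and 65 TPM in M0 samples and 51.7, 47.9 and 49 TPM in M1 samples. Its log2 change was -0.32 on TPM and 0.04 after rescaling, where it was not called. Reads of Prps1 can be shared with its close copy Prps1l3, which stood at 26.6 ± 0.831 and 27 ± 0.626 TPM.

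All 9 genes of purine synthesis fell on TPM, with log2 changes from -0.93 to -0.27 and no overlap between the groups in any of them, where 61.5% of all tested genes fell and 61.8% had every M1 value below every M0 value. After rescaling 5 were lower (Ppat, Gart, Pfas, Paics and Impdh1) and 4 were not called, where 35.4% of all tested genes were lower. The 4 genes that encode the early steps had the largest changes. Ppat, the amidotransferase that commits PRPP to purines, fell from 27.6 ± 1.55 to 14 ± 0.299 TPM (-0.93, SE 0.06, limma adjusted p = 4.8e-08, and -0.58 after rescaling). Gart, which carries several of the following activities, fell from 46.7 ± 1.44 to 27.6 ± 1.61 TPM (-0.74, and -0.39 after rescaling). Pfas, the amidotransferase of the following step, fell from 22.1 ± 2.27 to 11.2 ± 0.321 TPM (-0.91, and -0.57). These genes showed the same direction on both scales, as did Paics. Paics, the carboxylase and ligase of the middle of the pathway, was the most abundant purine gene, at 153, 160.3 and 155 TPM in M0 samples and 83.9, 85.1 and 91.2 TPM in M1 samples (-0.84, and -0.48 after rescaling). Every M1 value lay far below the lowest M0 value. Paics and Ppat lie head to head and share 277 bases on opposite strands, so reads there cannot be assigned without strand.

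The later steps changed less. Adsl, the lyase that acts in the main pathway and again in the AMP branch, fell from 27 ± 1.72 to 21.3 ± 1.54 TPM, but its change of -0.33 became 0.02 after rescaling and was not called. Atic, which closes the purine ring to IMP, fell from 106 ± 7.69 to 77.9 ± 4.85 TPM (-0.44, and -0.08 after rescaling, not called). Of the IMP dehydrogenases, which open the GMP branch, Impdh1 measured 16.8, 16.1 and 15.8 TPM in M0 samples and 9.21, 10.3 and 11.6 TPM in M1 samples (-0.60, and -0.27 after rescaling, adjusted p = 0.0076). Impdh2, the more abundant, measured 90.1, 90.2 and 92.1 TPM in M0 samples and 64.7, 64.8 and 70.7 TPM in M1 samples (-0.44, and -0.08 after rescaling, not called). Neither gene had overlapping groups. Gmps, which makes GMP, fell least of the purine genes, from 47 ± 3.54 to 38.9 ± 2.06 TPM, and its change of -0.27 turned to 0.09 after rescaling without a call.

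All 5 genes of pyrimidine synthesis fell on TPM, where 61.5% of all tested genes did. Cad, Dhodh and Umps were lower on both scales, and 35.4% of all tested genes were lower after rescaling. Dhodh, the mitochondrial dehydrogenase that makes orotate, fell 2.15-fold, from 10.8 ± 0.584 to 5.01 ± 0.504 TPM (-0.98, SE 0.08, limma adjusted p = 4.1e-07, and -0.65 after rescaling). Cad, the large enzyme of the opening steps, fell from 24.1 ± 2.24 to 15.5 ± 2.24 TPM (-0.61, and -0.26 after rescaling, adjusted p = 0.023). Umps, which turns orotate into UMP, measured 29.7, 30.4 and 30 TPM in M0 samples and 18.4, 17.6 and 19.4 TPM in M1 samples (-0.67, and -0.32 after rescaling). It had the highest mean of the 5 in M0, and Ctps had the highest in M1. The enzymes that make CTP from UTP showed smaller changes. Ctps measured 25.2, 27.1 and 23.7 TPM in M0 samples and 18, 18.9 and 19.7 TPM in M1 samples (-0.41, and -0.06 after rescaling). Ctps2 measured 9.57, 9.88 and 9.27 TPM in M0 samples and 6.61, 6.68 and 7.49 TPM in M1 samples (-0.42, and -0.09). Both had every M1 value below every M0 value on TPM, as did 61.8% of all tested genes, and neither was called after rescaling.

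Among 5 folate genes, Mthfd2 rose and the other 4 fell on TPM, where 18.7% and 61.5% of all tested genes did. After rescaling 2 of the 5 were higher and 1 lower, against 38.1% and 35.4% of all tested genes. Mthfd2, the mitochondrial methylenetetrahydrofolate dehydrogenase, was the most abundant, at 149, 157 and 162 TPM in M0 samples and 208, 209 and 228 TPM in M1 samples. All M1 samples were above all M0 samples (0.46, SE 0.05, limma adjusted p = 8.2e-06, and 0.82 after rescaling). Mthfd1, the cytosolic enzyme with dehydrogenase, cyclohydrolase and synthetase activities, went the other way, from 37.1, 40.7 and 40.7 TPM in M0 to 23.4, 23.8 and 27.5 TPM in M1 (-0.65, and -0.29 after rescaling, adjusted p = 0.0013). Mthfd1l, the mitochondrial synthetase, measured 26.4, 30.7 and 31.2 TPM in M0 samples and 24.6, 23.8 and 26.2 TPM in M1 samples. Its fall of -0.23 (adjusted p = 0.0097) turned to 0.12 after rescaling without a call, and without M0 replicate 3 the call on TPM was lost (-0.19, adjusted p = 0.051). The serine hydroxymethyltransferases feed carbon units from serine into folate. Shmt2, the mitochondrial form, measured 149, 146 and 149.5 TPM in M0 samples and 126, 124 and 128 TPM in M1 samples (-0.23 on TPM, and higher after rescaling at 0.13, adjusted p = 0.013). Shmt1, the cytosolic form, measured 14.6, 14.1 and 16.1 TPM in M0 samples and 11.1, 11.4 and 11.9 TPM in M1 samples (-0.35, and -0.01 after rescaling, not called). The summed level of the 5 folate genes was 388 ± 12.2 TPM in M0, against 402 ± 17.4 TPM in M1, and without Mthfd2 it was 232 ± 5.50 and 187 ± 5.79 TPM.

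The 8 genes of deoxynucleotide supply held the largest falls, in Tk1 and Rrm2, and a rise, in Dck. Rrm2, the small subunit of ribonucleotide reductase used in S phase, measured 144, 141 and 144 TPM in M0 samples and 39.2, 41.1 and 46 TPM in M1 samples. Every M1 value lay far below the lowest M0 value (3.39-fold lower on average, -1.74, SE 0.06, limma adjusted p = 2.1e-10, and -1.38 after rescaling). Tk1, the cytosolic thymidine kinase, measured 100.2, 94.8 and 90.6 TPM in M0 samples and 26.6, 27.5 and 28 TPM in M1 samples (3.48-fold lower, -1.76, SE 0.05, adjusted p = 6.5e-11, and -1.40 after rescaling). Counted from the bottom of the 11297 tested genes by log2 change on the TPM scale, Tk1 ranked 242 and Rrm2 256. Tk1 shares 96 bases with Afmid on the opposite strand, which stood at 2.31 and 1.82 TPM on average.

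The partner subunit and the thymidylate enzymes fell less. Rrm1, the large subunit of the reductase, fell from 134 ± 3.9 to 77.4 ± 2.04 TPM (-0.79, and -0.42 after rescaling). Rrm2b, the p53-regulated small subunit, measured 7.68, 8.52 and 7.83 TPM in M0 samples and 7.28, 6.84 and 5.99 TPM in M1 samples. Its groups did not overlap, but the fall was small (-0.23, adjusted p = 0.02), turned to 0.09 after rescaling without a call, and lost its call without M0 replicate 2 (-0.19, adjusted p = 0.076) and without M1 replicate 3 (-0.16, adjusted p = 0.069). Dtymk, the thymidylate kinase, measured 143, 132 and 147 TPM in M0 samples and 80.8, 82.5 and 72.6 TPM in M1 samples (-0.83, and -0.47 after rescaling). Tyms, the thymidylate synthase, is represented by the non-coding transcript NR_033402, and fell from 16.7 ± 0.16 to 13.2 ± 0.649 TPM (-0.31, but 0.03 after rescaling, not called). Dctd, the dCMP deaminase, fell from 4.53 ± 0.446 to 2.32 ± 0.337 TPM (-0.74, and -0.46 after rescaling). Dck, the deoxycytidine kinase of the salvage route, rose from 35.2, 35 and 37.9 TPM in M0 to 59.6, 57.6 and 64.8 TPM in M1. Every M1 sample lay above every M0 sample (1.69-fold, 0.74, SE 0.06, adjusted p = 2.8e-07, and 1.09 after rescaling). The summed level of the other 7 genes was 542 ± 6.12 TPM in M0, against 248 ± 0.653 TPM in M1, and Dck alone made up 36 ± 1.62 and 60.7 ± 3.72 TPM.

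Genes of a list for S phase fell on TPM, as did the genes of deoxynucleotide supply other than Dck. Of the 21 genes listed, all 21 fell on TPM and 20 were lower after rescaling, against 61.5% and 35.4% of all tested genes. The median log2 change of the 21 was -1.08 on TPM and -0.72 after rescaling. The list includes Mki67 and Top2a, which are not confined to S phase. Top2a was the gene not called after rescaling (0.07, limma adjusted p = 0.24). Cdc6, which loads the replicative helicase, and the cyclin E genes Ccne1 and Ccne2 had the largest falls, to 1.53 ± 0.123, 5.93 ± 0.784 and 5.47 ± 0.247 TPM from 13.8 ± 0.722, 27.2 ± 0.919 and 24.1 ± 0.768 TPM. The summed level of the 21 was 2297 to 2417 TPM in M0 and 1299 to 1369 TPM in M1. In bulk RNA, fewer cells in S phase and less RNA per cell cannot be told apart, and the part of cycling cells in the changes of Rrm2, Tk1 and the other genes was not tested.

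**Figure D2:**
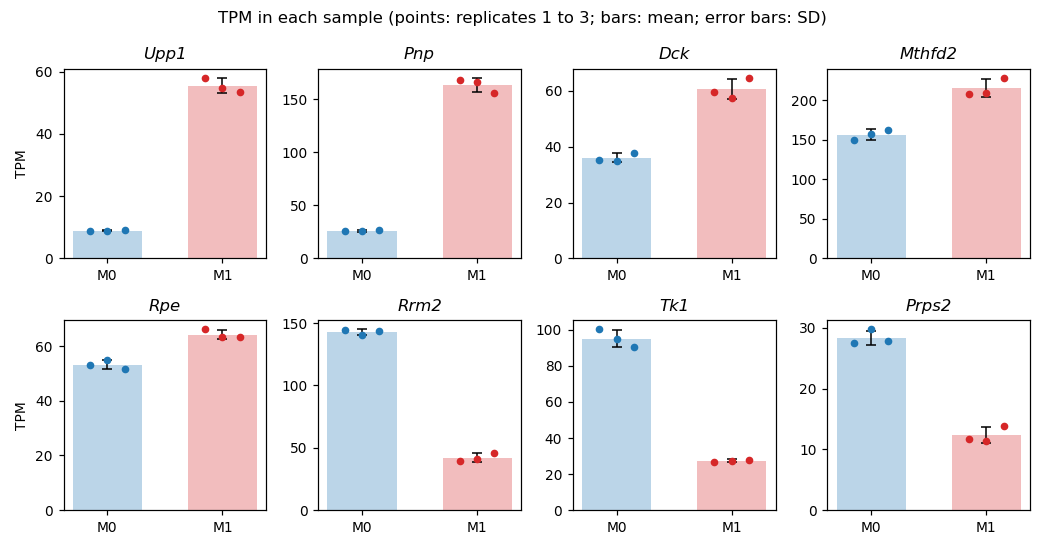
TPM (vertical axis, linear from 0, a scale of its own in each panel) of the 5 genes that rose and the 3 that fell by at least 2-fold on the fitted log2 scale, in M0 and M1. Points are replicates 1 to 3 from left to right, bars the mean and error bars the SD. Pnp and Upp1 stand more than 6-fold higher in M1, Rrm2 and Tk1 more than 3-fold lower, and no M1 point overlaps the M0 points in any panel.

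The phosphorylases Pnp and Upp1 rose more than any other of the 46 genes. These enzymes cleave nucleosides, Pnp inosine and guanosine and Upp1 uridine, into a base and ribose-1-phosphate. Pnp measured 25.4, 25.3 and 26.2 TPM in M0 samples and 168, 166 and 155 TPM in M1 samples, 6.37-fold higher on average (2.62, SE 0.05, limma adjusted p = 1.2e-12, and 2.98 after rescaling). Upp1 measured 8.67, 8.75 and 9.09 TPM in M0 samples and 58.1, 54.8 and 53.5 TPM in M1 samples, 6.27-fold higher (2.52, SE 0.05, adjusted p = 4.9e-12, and 2.86 after rescaling). In both, the lowest M1 sample was several-fold above the highest M0 sample. By log2 change they ranked 214 and 228 from the top among 11297 tested genes, and the authors' deposited table gave 3.03 and 3.04. A close neighbouring copy of Pnp, Pnp2, which was looked up after the values were seen, went from 2.18 ± 0.199 to 13.8 ± 1.14 TPM (2.22, adjusted p = 4.7e-10), and reads can be shared between these copies.

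The other 5 genes placed in the salvage role fell on TPM, where 61.5% of all tested genes did. This role does not include the salvage kinases Dck and Tk1, given above with the deoxynucleotide genes. Aprt, which turns adenine into AMP with PRPP, was the most abundant of the 7, at 442, 425 and 458 TPM in M0 samples and 349, 363 and 326 TPM in M1 samples (-0.35, but 0.01 after rescaling, not called). Hprt, which recycles hypoxanthine and guanine, fell from 246 ± 10.7 to 214 ± 1.64 TPM (-0.20), yet was higher after rescaling (0.16, adjusted p = 0.0074). Ada, the adenosine deaminase, fell from 22.5 ± 0.405 to 14.5 ± 0.76 TPM. Of the 7 genes placed in this role, only Ada was lower on both scales (-0.60, and -0.25). Adk, the adenosine kinase, fell from 35.2 ± 0.644 to 27.7 ± 1.33 TPM (-0.34, but 0.02 after rescaling, not called). Uck2, a uridine and cytidine kinase, fell from 8.66 ± 0.589 to 6.77 ± 1.09 TPM (-0.32, adjusted p = 0.012), and after rescaling its change of -0.0015 was not called. The summed level of the 7 salvage genes was 789 ± 19.5 TPM in M0 and 828 ± 29.1 TPM in M1. Without Pnp and Upp1 it was 754 ± 18.7 and 609 ± 21.1 TPM.

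Cmpk1, Nme1 and Nme2 were placed together as kinases that bring nucleoside phosphates to the next level, apart from Dtymk, given above with the deoxynucleotide genes. Cmpk1, which phosphorylates UMP and CMP, fell from 106 ± 4.36 to 91.6 ± 1.41 TPM (-0.21) and was higher after rescaling (0.16, adjusted p = 0.01). The nucleoside diphosphate kinase Nme2 was the most abundant, at 266, 249 and 266 TPM in M0 samples and 255, 266 and 223 TPM in M1 samples. Its groups overlapped and it was not called (-0.07, limma adjusted p = 0.31), though it was higher after rescaling (0.29, adjusted p = 0.0052). Nme1 measured 135, 129.8 and 128 TPM in M0 samples and 106, 110.3 and 94.9 TPM in M1 samples (-0.34, but 0.03 after rescaling, not called). Nme1 and Nme2 are close copies, so the split of reads between them is uncertain.

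**Figure D3:**
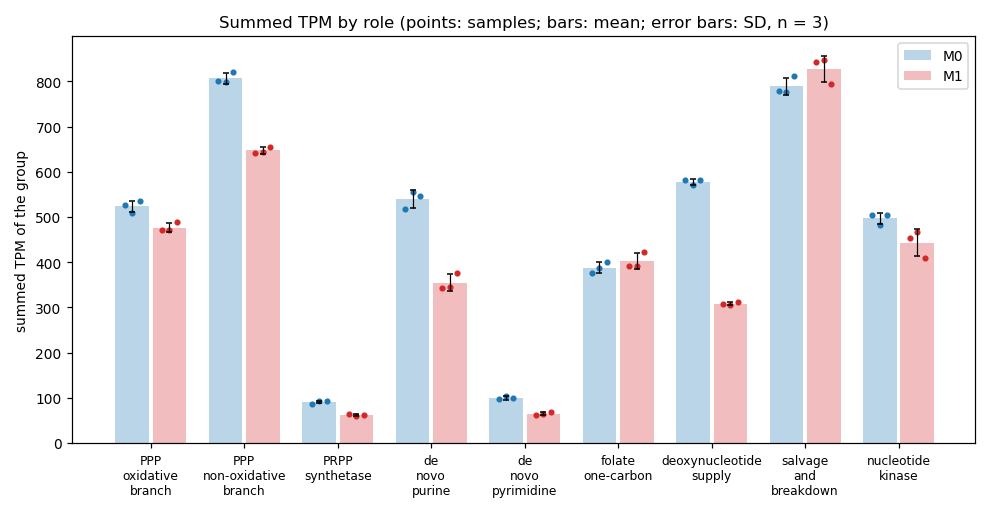
Summed TPM (vertical axis, linear from 0) of the genes of each role in M0 (blue) and M1 (red). Points are samples, bars the mean and error bars the SD (n = 3). The sum of the deoxynucleotide genes went from 578 ± 6.83 to 308 ± 3.62 TPM and that of the purine genes from 540 ± 20.4 to 355 ± 18.8 TPM, while those of the folate and salvage genes lay close together in both groups.

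By role, the summed TPM differed most for deoxynucleotide supply, 1.87-fold lower in M1. It was 1.54-fold lower for pyrimidine synthesis (99.8 ± 4.30 to 64.7 ± 3.71 TPM), 1.52-fold for purine synthesis and 1.46-fold for the PRPP synthetases (90.6 ± 3.0 to 61.8 ± 2.25 TPM). The sum was 1.25-fold lower for the non-oxidative branch (807 ± 12.7 to 647 ± 7.38 TPM), 1.12-fold for the diphosphate and monophosphate kinases (497 ± 12.1 to 443 ± 30.6 TPM) and 1.10-fold for the oxidative branch (523 ± 13.0 to 477 ± 10.7 TPM). All 46 together made up 4312 ± 69.9 TPM in M0, which became 3587 ± 10.8 TPM in M1. These sums are descriptions on the TPM scale with no test, and they are weighted by the most abundant genes. They were not computed after rescaling, where G6pdx, Pgd, Cmpk1 and Nme2 were higher. The median-of-ratios factors were 1.12 to 1.16 in M0 and 0.876 to 0.90 in M1. Dividing by them raises every sum in M1 relative to M0, so the smaller falls need not hold on that scale.

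Related enzymes were compared within each sample for 7 pairs, with an exact two-sided permutation test whose smallest possible p is 0.10 for 3 samples against 3. Such a ratio does not depend on the scale except through the pseudocount. Prps1 was 2.20 times as abundant as Prps2 in M0 and 4.02 times in M1 (difference of log2 changes 0.82). Rrm2 exceeded Rrm2b 17.8-fold in M0 and 6.28-fold in M1 (-1.51). Mthfd1 exceeded Mthfd1l 1.34-fold in M0, and in M1 the ratio was 1.00 (-0.41). In these 3 pairs the M0 and M1 samples did not overlap, which gave the smallest exact p, 0.10 (0.12 adjusted over the 7 pairs). The ratio of Nme1 to Nme2 went from 0.503 to 0.418 (-0.26) and that of Impdh1 to Impdh2 from 0.179 to 0.155 (-0.17). That of Shmt1 to Shmt2 went from 0.101 to 0.091 (-0.12). The samples of these pairs did not overlap either, also each at an exact p of 0.10. How often other gene pairs separate in this way was not computed, and for single tested genes the groups did not overlap in 81.4%. Ctps and Ctps2 kept a ratio of 2.64 in M0 and 2.72 in M1 (0.01, exact p = 0.70), and their samples overlapped.

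**Figure D4:**
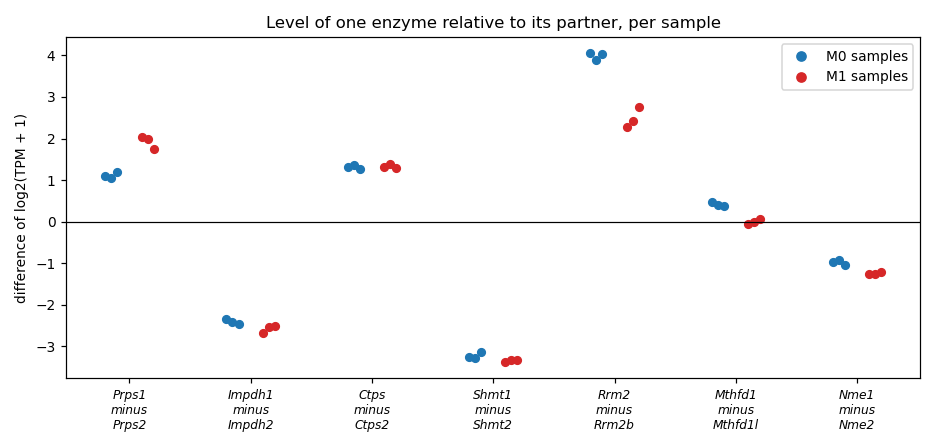
Difference of log2(TPM + 1) between the members of 7 enzyme pairs (vertical axis) in each M0 sample (blue) and M1 sample (red). The M1 points lie above the M0 points for Prps1 minus Prps2 and below them for Rrm2 minus Rrm2b, while those of Ctps minus Ctps2 overlap.

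Other genes of the same pathways were taken from 8 lists of 106 symbols, of which 104 were in the table and 76 were tested. On TPM 9 of them were higher and 55 lower, where 18.7% and 61.5% of all tested genes were. After rescaling 23 were higher and 37 lower, where 38.1% and 35.4% of all tested genes were, with a median log2 change of -0.45 on TPM and -0.12 after rescaling. With the S phase genes added, 97 genes were tested, of which 9 rose and 76 fell on TPM, with 23 higher and 57 lower once rescaled. The largest rise was that of Cmpk2, a mitochondrial UMP and CMP kinase known to respond to interferon, from 4.13, 5.39 and 5.55 TPM in M0 to 904, 910.5 and 927 TPM in M1 (7.26, limma adjusted p = 3.2e-13, and 7.59 after rescaling). Samhd1, which breaks down deoxynucleoside triphosphates, rose 6.3-fold, from 64.6, 71 and 66.9 TPM in M0 to 409, 418 and 449.8 TPM in M1 (2.64, and 3.0 after rescaling). Both stood well above their M0 values in every M1 sample. Every other deoxynucleotide gene of the list fell on TPM (5 of 6, with 4 lower after rescaling), with Dut, the dUTPase, at 68.1 ± 4.16 and 29.6 ± 1.5 TPM, Dnph1 at 58.5 ± 4.65 and 29.1 ± 1.62 TPM, and Nudt1 at 19.1 ± 0.871 and 10.1 ± 0.215 TPM.

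Of all tested genes, 18.7% rose and 61.5% fell on TPM, and 38.1% were higher and 35.4% lower after rescaling. The counts of each list stand against these shares. Of 7 other pyrimidine genes, Cmpk2 rose and 5 fell on TPM, whereas rescaling gave 3 higher and 4 lower. The largest falls on TPM were in Dpys (-1.62), Uck1 (-1.02) and Dctpp1 (-0.60). Of 18 other purine genes, 1 rose and 13 fell on TPM, whereas rescaling gave 5 higher and 5 lower. The gene that rose was Xdh, the xanthine dehydrogenase that acts after Pnp in purine breakdown, from 29.4 ± 2.11 to 33 ± 2.46 TPM (0.16, adjusted p = 0.047, and 0.52 after rescaling). Adssl1 (-1.23), Gmpr (-1.21) and Ampd2 (-1.0), which interconvert purine nucleotides, fell most. Of 7 other pentose phosphate genes none rose and 6 fell on TPM, whereas rescaling gave 1 higher and 3 lower. H6pd, the hexose phosphate dehydrogenase of the endoplasmic reticulum, fell from 12.2 ± 0.766 to 4.66 ± 0.249 TPM (-1.22, and -0.90 after rescaling). Pgm2 (-0.81) and Shpk (-0.47) followed in log2 change. Shpk was low, at 1.32 ± 0.123 and 0.67 ± 0.0826 TPM, with as few as 25 reads in a library. On mean TPM it fell 1.96-fold, against 1.78-fold for Pgm2. Pgm2 is the deposited symbol of the gene at chr4:99929451-99987294, and which phosphomutase it encodes was not checked here.

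The counts of the remaining lists also stand against 18.7% of all tested genes that rose and 61.5% that fell on TPM. After rescaling these shares were 38.1% and 35.4%. Among 16 other folate and serine genes, 3 rose and 10 fell on TPM, and rescaling gave 6 higher and 7 lower. Among those that rose were Mthfs (0.48) and Ggh (0.20), both also higher after rescaling. Among those that fell were Gcsh (-1.11), of the glycine cleavage system, and the folate transporter gene Slc46a1 (-0.87), both also lower after rescaling. Of 14 nucleotidase genes, 2 rose, Enpp4 7.08-fold (2.50) and Nt5c3 1.29-fold (0.36), and 10 fell, with Nt5dc2 (-1.24), Entpd6 (-0.93) and Entpd5 (-0.92) falling most, against 5 and 9 after rescaling. Of 4 nucleoside transporter genes, the concentrative transporter Slc28a2 rose from 2.75 ± 0.364 to 7.99 ± 0.229 TPM (1.27). The equilibrative transporters Slc29a1 (-0.92), Slc29a2 (-0.60) and Slc29a3 (-0.34, not called after rescaling) fell. Slc29a2 was low, at 1.52 ± 0.258 and 0.667 ± 0.209 TPM, with as few as 19 reads in a library. On mean TPM it fell 2.27-fold, against 1.93-fold for Slc29a1. Of 4 other nucleoside diphosphate kinases none rose and 3 fell on TPM, whereas rescaling gave 1 higher (Nme6, 0.35, named after its values were seen) and 3 lower. Those that fell were Nme4 (-0.98), Nme3 (-0.88) and Nme7 (-0.52), all 3 also lower after rescaling.

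**Figure D5:**
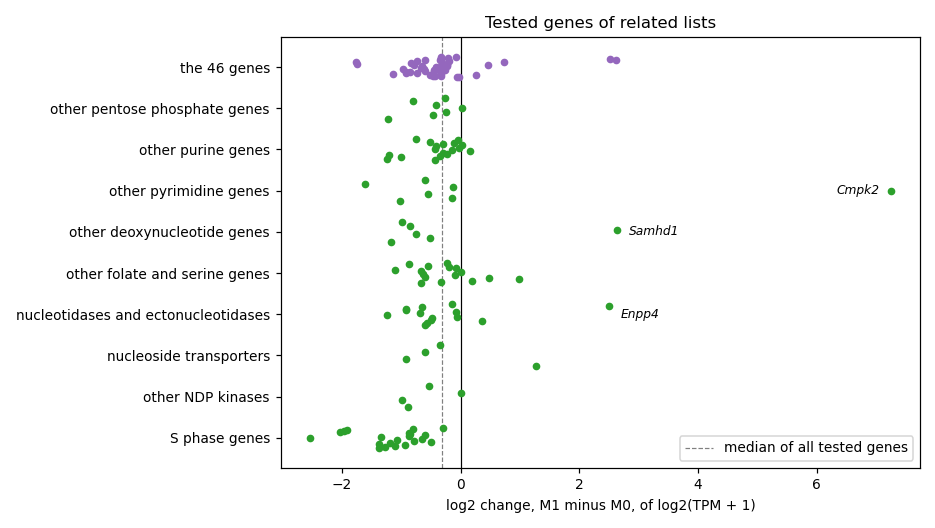
Log2 change of M1 minus M0 (horizontal axis, log2(TPM + 1)) of the tested genes of each list, with the 46 genes on top and the dashed line at the median of all tested genes, -0.31. Each point is a gene, and the vertical offset within a list has no meaning. Cmpk2 lies beyond 7, Samhd1 and Enpp4 near 2.5, and every gene of the S phase list lies below 0.

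Windows of 300 bases around the start, 250 before and 50 after, were found by symbol for 43 of the 46 genes in RefSeq (GRCm38.p6), and 42 of them began within 10 bases of the deposited start. They were searched on both strands for 8 motifs, and matches describe letters, not sites in use. E2F sites (TTCCCGC or TTCGCGC, and also TTGCCGC or TTGGCGC) were found in 12 of 43 windows (27.9%), against 9.57% of all 32851 promoters of the table and 18.1% of those of tested genes. They were in 7 of the 15 windows of genes lower on both scales, which were Prps2, Ppat, Cad, Mthfd1, Rrm1, Rrm2 and Dtymk. None of the 5 windows of genes that rose held such a site. The other matches were in G6pdx, which was higher after rescaling, and in Prps1, Atic, Impdh2 and Shmt1, not called after rescaling. The share among all tested genes lower on both scales was not computed, so the split by direction has no background beside it. CCAAT boxes (CCAAT, which in Impdh2 overlapped an E2F match) were found in 17 windows (39.5%, against 37.4% of all promoters and 39.2% of those of tested genes). They were also in 7 of the 15 windows of genes lower on both scales, and in 3 of the 5 of genes that rose, Pnp, Rpe and Mthfd2. E-boxes (CACGTG) were found in 6 windows (14.0%, against 7.15% of all promoters and 10.5% of those of tested genes) and antioxidant response elements (TGACNNNGC) in 7 (16.3%, against 12.4% and 14.8%), G6pdx, Pgd and Dck among them. Of the motifs tied to the treatment, the GAS element (TTCNNNGAA) was found in 4 windows (9.30%, against 8.30% of all promoters and 6.85% of those of tested genes), the ISRE core (GAAA, any 2 bases, GAAA) in 2, Rpe and Cmpk1 (4.65%, against 3.44% and 3.54%), and the NF-kappaB site in none (against 4.51% and 5.04%). The ATF4 composite element (TGATGNAAT) was also found in none (against 0.965% and 0.375%).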

How the data were processed

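Poly(A) RNA of 6 samples was sequenced, per the labels' protocols. Per the submitters' processing notes, the build is mm10 and the tools include STAR 2.7.5a with HOMER 4.11.1, bcl2fastq and DESeq2, without stated roles. The authors deposited TPM per gene, which sum to between 551257 and 572349 per library, and a table with log2 values per sample, a log2 fold change, a raw p-value and an adjusted one for M1 over M0, per the file headers. TPM times transcript length was a whole multiple of a library constant, within 0.1, for 99.8% to 99.99% of values above 0, which gave the read numbers. They cover counting error only. The deposited p-values and log2 fold changes are quoted as the authors' own.

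Testing was limited to genes reaching 1 TPM in 3 or more samples. It used limma 3.58.1 (trend, robust, R 4.3.3) on log2(TPM + 1), with group as the only term. The procedure was also run on simulated reads in which few genes changed, as many up as down. Here 80.2% of tested genes were called, so that run does not check the shift between the scales. Alternatives were median-of-ratios rescaling over the same genes, a pseudocount of 0.1, no filter, a replicate block and leaving out each sample. The genes and lists were chosen with earlier results of these data known. Every one of the 46 genes is named. Values in every sample are given for genes that rose, those with an absolute log2 change of at least 1, enzyme pairs and the most abundant gene of each role. Up to 3 called genes per direction are named from each related list. Some genes that this rule would name are not reported here.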

Additional observations from a re-analysis of the deposited data

How the results depend on the processing

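Rescaling by median-of-ratios factors moved the counts most. Over all tested genes, 2111 higher and 6944 lower became 4305 and 4002. Among the 46 genes 5 and 38 became 11 and 17, and in the 9 related lists the number higher went from 9 to 23. It turned the sign of 16 of the 46 genes: G6pdx (0.30), Pgd (0.34), Taldo1 (0.043), Prps1 (0.035), Adsl (0.021), Gmps (0.089), Shmt2 (0.13), Mthfd1l (0.12), Rrm2b (0.093), Tyms (0.030), Hprt (0.16), Aprt (0.013), Adk (0.017), Cmpk1 (0.16), Nme1 (0.026) and Nme2 (0.29). Rescaling shifts all genes of a library together. A pseudocount of 0.1, no filter on low values and the replicate block left the direction and call of all 46 genes as they were. The numbers were not taken as pairs, since no label says that they mark a shared culture or day. Same-numbered samples of the groups had r of their deviations of 0.07, -0.08 and 0.04. Differently numbered samples had -0.18 to 0.15. With 3 samples per group this cannot exclude pairing. With the replicate block 2143 genes were higher and 7016 lower. Leaving out each sample in turn, Pgd ranged from -0.069 to 0.00011 and Nme2 from -0.12 to 0.0023, neither called in any of these, and Ctps minus Ctps2 from -0.0122 to 0.0396. Depth limits Dctd, Uck2, Upp1 in M0 and Dhodh, with as few as 63, 126, 150 and 157 reads in a library.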
